A study of Mus musculus with 2 samples.

Results

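Chemokines and their receptors were examined in the open chromatin of the adult mouse spleen. The members were the protein-coding genes of the mm10 annotation whose symbols name a CC, CXC, XC or CX3C chemokine, a matching receptor or an atypical chemokine receptor. They numbered 59 of the 21938 protein-coding genes, with 37 ligands and 22 receptors. The symbol rule used no measured value, but earlier results of these data were known when the members were chosen. DNase I preferentially cuts DNA that is not wrapped in nucleosomes, so sequencing the cuts (DNase-seq) marks promoters and other regulatory DNA that are accessible. Whole spleen was taken from 2 male mice aged 2 months, of the strain B6CASTF1/J, which are F1 hybrids of C57BL/6J and CAST/EiJ. Each animal gave 1 library, named animal 1 and animal 2 after its replicate number. The labels name 1 group, no treatment and no contrast, so every value is a description given per animal, without a test.

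Chemokines are small secreted or membrane-bound proteins that direct the migration of leukocytes, and most of their receptors couple to Gi proteins. In the spleen, fibroblastic stromal cells of the white pulp make Cxcl13, Ccl19 and Ccl21, which place B cells in follicles and T cells in the T zone through Cxcr5 and Ccr7. Other chemokines are made on demand by activated macrophages, lymphocytes or epithelia, and atypical receptors bind chemokines without Gi signalling and remove or redistribute them.

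The longer of the deposited peak lists held 79246 peaks in animal 1 and 77231 in animal 2, with a median height of 0.888 and 1.05. Height is the signal at a peak as the authors deposited it, in a unit that is not stated. No read total is given, so the depth behind a height is unknown. Among chosen markers, promoter peaks were found in both animals at 6 of 6 B cell genes and 6 of 7 T cell genes. They were found at 3 of 5 macrophage and monocyte genes, 2 of 4 dendritic cell genes and 3 of 5 endothelial and stromal genes. Neutrophil genes had them at 0 of 5, and liver and pancreas genes, from outside the spleen, at 1 of 5. The share over all protein-coding genes was 59.8%, so the macrophage, dendritic and stromal counts were near or below it. Summed marker heights were 52.0 and 52.8 for B cells, 17.9 and 18.7 for T cells, and 9.59 and 8.70 for macrophages. They were 10.3 and 9.38 for dendritic cells, 6.91 and 6.05 for endothelium and stroma, and 3.79 and 5.49 for liver and pancreas. In bulk tissue, a site open in few cells and a site less open in many cells cannot be told apart, and this holds for each height below.

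A few stretches of mm10 carry the clearest member peaks and are printed 5′ to 3′ along the gene, with capitals for bases inside a footprint in both animals. A footprint is a short protected stretch within an accessible site, and the deposited footprints have positions but no score. All printed bases lie outside annotated GENCODE exons. Shown first are the promoters of Cxcr4 (chr1:128592321-128592460, minus strand) and Ccr7 (chr11:99155121-99155320, minus strand), receptors with tall peaks, and of the ligand Cxcl10 (chr5:92348890-92349040, minus strand), whose peak is low. The others are the tallest distal sites, away from coding gene starts, near the receptors Ccr6 (chr17:8232181-8232360, plus strand), Ccr7 (chr11:99168161-99168380, minus strand) and Ccr1 (chr9:123924781-123925000, minus strand).
Cxcr4 promoter: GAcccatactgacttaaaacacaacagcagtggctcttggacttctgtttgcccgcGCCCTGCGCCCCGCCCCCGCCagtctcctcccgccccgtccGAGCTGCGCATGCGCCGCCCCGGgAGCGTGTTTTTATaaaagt
Ccr7 promoter: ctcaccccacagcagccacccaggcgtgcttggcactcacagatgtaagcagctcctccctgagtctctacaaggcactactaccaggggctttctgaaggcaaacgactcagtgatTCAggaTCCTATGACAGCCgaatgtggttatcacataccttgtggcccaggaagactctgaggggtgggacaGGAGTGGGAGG
Cxcl10 promoter: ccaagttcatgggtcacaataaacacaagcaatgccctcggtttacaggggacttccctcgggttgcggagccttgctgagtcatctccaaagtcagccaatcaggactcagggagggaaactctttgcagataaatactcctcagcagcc
Ccr6 distal site: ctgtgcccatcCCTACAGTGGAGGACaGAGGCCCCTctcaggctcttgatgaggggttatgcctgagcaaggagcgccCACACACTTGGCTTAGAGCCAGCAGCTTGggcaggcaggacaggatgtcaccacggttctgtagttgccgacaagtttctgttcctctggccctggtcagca
Ccr7 distal site: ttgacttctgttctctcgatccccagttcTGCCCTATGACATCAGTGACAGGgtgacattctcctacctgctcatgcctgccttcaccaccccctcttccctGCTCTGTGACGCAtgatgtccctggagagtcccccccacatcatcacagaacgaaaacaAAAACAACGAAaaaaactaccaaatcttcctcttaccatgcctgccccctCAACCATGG
Ccr1 distal site: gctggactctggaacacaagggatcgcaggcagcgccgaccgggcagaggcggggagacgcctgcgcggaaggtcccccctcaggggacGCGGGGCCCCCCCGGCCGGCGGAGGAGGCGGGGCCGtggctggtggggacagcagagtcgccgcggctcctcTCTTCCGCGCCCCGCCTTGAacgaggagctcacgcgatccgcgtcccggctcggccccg

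Most chemokine genes had no accessible promoter in the spleen. Lymphocyte receptors were open in both animals at 5 of 6 positioning genes and 2 of 5 effector genes. Myeloid receptors were open at 0 of 7 and atypical ones at 2 of 4. A promoter was counted as open where a peak overlapped the 1 kb on either side of any annotated transcription start site (TSS) of the gene. It was open in both animals at 18 of 59 members (30.5%), against 59.8% of all protein-coding genes. Ligands were open in both animals at 9 of 37 genes (24.3%) and receptors at 9 of 22 (40.9%). Taken by itself, animal 1 had 10 ligands and 11 receptors open, against 61.4% of coding genes, and animal 2 had 9 and 10, against 62.6%. Neither animal had a promoter peak at 27 ligands and 10 receptors.

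Member promoters are poor in CpG, a dinucleotide whose density goes with broad promoter accessibility in many tissues. The ratio of observed to expected CpG within 1 kb of the most 5′ TSS had a median of 0.210 over the members and 0.474 over all coding genes, and 54 of 59 members fell under 0.6, the limit used here for a low-CpG promoter. Of coding genes under that limit, 43.9% were open in both animals, and of those above it, 90.6%. The low-CpG members were open at 7 of 34 ligand genes and 7 of 20 receptor genes, so the ligands were below the low-CpG background and the receptors were nearer to it. Of the 5 high-CpG members, Cxcl12, Ccl25, Ccr9 and Cxcr4 were open and Cxcl14, a chemokine of skin and other epithelia, was not. CpG was counted at the most 5′ start, and the strongest Ccr9 peak lies 95070 bp from it in animal 1. The gap between the classes rests partly on genes with several start sites. With the most 5′ TSS alone, 9 ligands (24.3%) and 6 receptors (27.3%) were open, because Cxcr5, Ccr6 and Ackr4 have their peaks at internal start sites. No share over all coding genes is given for this setting, and the shares above count any start.

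**Figure D1:**
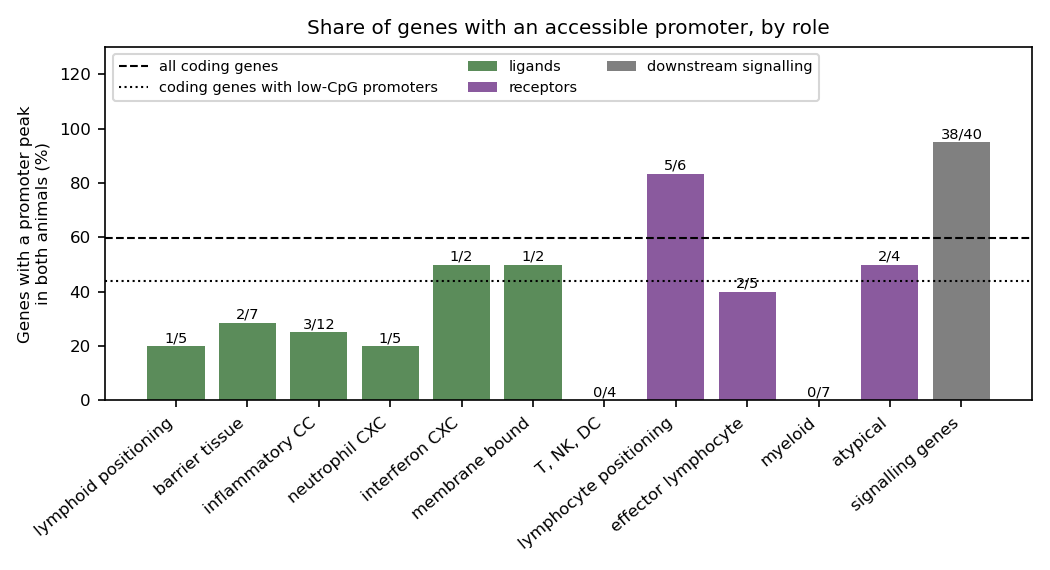
Bars give the percentage of genes in each role with a promoter peak in both animals, with the count above each bar, for ligands (green), receptors (purple) and 40 downstream signalling genes (grey). The dashed line marks all coding genes (59.8%) and the dotted line coding genes with low-CpG promoters (43.9%). Lymphocyte positioning receptors stand at 5 of 6 and myeloid receptors at 0 of 7.

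Ligand promoters open in both animals were lower at the median than those of coding genes. The median height over the 9 ligands open in both animals was 0.523 in animal 1 and 0.496 in animal 2, against 5.82 and 7.0 over all coding genes open in both animals and 4.13 and 4.98 over those with low-CpG promoters. Receptors open in both animals had a median of 1.97 and 1.32. The SD of the median over the animals (n = 2) was 0.0193 for ligands and 0.461 for receptors, and the median of the genes' mean heights was 0.548 and 1.62. That order rests on low peaks. With the shorter peak list the medians were 2.78 for ligands and 3.87 for receptors, and with the higher 50% of the peaks they were 4.38 for 3 ligands and 2.28 for 7 receptors, which turns the order.

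Among the ligands that position lymphocytes, the promoter of Cxcl12 was open and those of Cxcl13, Ccl19, Ccl21a and Ccl21b had no peak. Cxcl12, made by stromal cells of marrow and red pulp, had a peak of 0.451 in animal 1 and 0.645 in animal 2 (mean with SD 0.548 ± 0.137, n = 2). Cxcl13, the follicle chemokine, had its nearest peak 6.37 kb from its start in animal 1 and 6.39 kb in animal 2, at heights of 0.523 and 0.720. The promoters of Ccl19, Ccl21a and Ccl21b are built largely of repeated sequence. In the 2 kb around their starts, 83.1%, 83.7% and 100% of the 31-base words occurred more than once in the genome. The 518 kb from Ccl21b to Ccl21a held 0 peaks in either animal, and 98.1% of its words were repeated, so closed chromatin and unmapped reads cannot be told apart there. Without the 5 ligands whose promoter words were repeated at 50% or more, 8 of 32 ligands (25%) were open in both animals.

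Barrier-tissue ligands held the tallest ligand peak, at the gut and thymus chemokine Ccl25. Its peak measured 11.0 in animal 1 and 12.4 in animal 2 (mean with SD 11.7 ± 0.973, n = 2). That peak, at chr8:4325061-4325260, lies 50 bp upstream of the Ccl25 start but inside an exon of Elavl1, a neighbouring gene for an RNA-binding protein whose promoter it shares, so the height cannot be assigned to Ccl25. Without Ccl25, the 8 other open ligands had a median of 0.501 and 0.489.

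The skin chemokine Ccl27a had the next tallest ligand peak, with 4.44 in animal 1 and 4.32 in animal 2 (mean with SD 4.38 ± 0.0821, n = 2). It lies 6 bp from a Ccl27a start, and 68.5% of the 31-base words around that promoter were repeated. Ccl27b, an annotated copy in the cluster with Ccl19, had its nearest peak 222 kb away and 100% repeated words. Ccl20, Ccl28, Cxcl14 and Cxcl17, which attract cells to mucosa and skin, had no promoter peak. The Ccl20 promoter, with 7.46% repeated words, had its nearest peak 129 kb away in animal 1 and 113 kb in animal 2.

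Of the 12 inflammatory CC chemokines, which recruit monocytes, eosinophils and effector lymphocytes, 3 were open in both animals. Ccl4, which attracts macrophages and T cells, had 0.788 in animal 1 and 0.448 in animal 2. Ccl2, the main monocyte attractant, had 0.523 and 0.482, and Ccl24, an eosinophil attractant, had 0.480 and 0.380. In the same order these peaks ranked at the 45.2, 27.6 and 23.8 percentile of all peaks of animal 1 and at 15.8, 18.5 and 10.9 in animal 2. Ccl3, Ccl5, Ccl6, Ccl7, Ccl8, Ccl9, Ccl11, Ccl12 and Ccl26 had no promoter peak. For Ccl5, an abundant product of T and NK cells, the nearest peak was 4.14 kb away in animal 1 and 4.18 kb in animal 2, with heights of 0.817 and 0.699.

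The neutrophil-attracting CXC ligands had little accessible DNA. Cxcl3 was counted as open in both animals, with 0.394 in animal 1 and 0.244 in animal 2, but these were different peaks on either side of the start, and neither was found in the other animal. Cxcl1, Cxcl2, Cxcl5 and Cxcl15 had none. The 145 kb holding these 5 genes contained 1 peak in each animal. Neutrophil markers were also low, with a summed height of 0.487 in animal 1, at Csf3r, and 0 in animal 2, and their part in these values was not tested.

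Cxcl10 and Cxcl9, ligands of Cxcr3 induced by interferon, differed at the promoter. Cxcl10 had 1.12 in animal 1 and 1.23 in animal 2 (mean with SD 1.18 ± 0.0738, n = 2), and Cxcl9 had no promoter peak. The membrane-bound ligand Cx3cl1 had 0.351 and 0.496. Cxcl16 had a peak in animal 1 alone, at 0.580, within 1 kb of Zmynd15 as well. The 4 chemokines acting on T, NK and dendritic cells, Ccl1, Ccl17, Ccl22 and Xcl1, had no promoter peak in either animal.

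Receptors that position lymphocytes were open in both animals at 5 of 6 genes. Cxcr4, the Cxcl12 receptor carried by most leukocytes, had the tallest promoter peak not shared with a neighbour, with 9.32 in animal 1 and 7.90 in animal 2 (mean with SD 8.61 ± 1.01, n = 2). It had 5 promoter peaks in each animal, at heights of 2.82, 1.19, 9.32, 5.02 and 1.25 in animal 1 and 3.52, 1.03, 7.90, 4.79 and 1.19 in animal 2. The tallest covers the Cxcr4 sequence printed above and held 3 footprints in animal 1 and 4 in animal 2.

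Cxcr5, which brings B cells to follicles, had 6.73 in animal 1 and 6.62 in animal 2 (mean with SD 6.68 ± 0.0802, n = 2). This peak, at chr9:44526361-44526560, lies 40 bp from an internal start in animal 1 and 35416 bp from the most 5′ annotated start. Ccr7, which guides T cells and mature dendritic cells to the T zone, had 6.58 and 4.31 (mean with SD 5.45 ± 1.61, n = 2). Both animals placed 5 footprints in the Ccr7 peak. Cxcr4 was the only receptor above the coding-gene median in animal 2 (7.0), and Cxcr4, Cxcr5 and Ccr7 were above that of animal 1 (5.82).

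The other positioning receptors were lower. Ccr6, found on B cells and on Th17 cells, had 1.15 in animal 1 and 0.957 in animal 2, at a start 7740 bp inside the gene in animal 1, and 2.69 on average when the window was widened to 2 kb. Ccr9, the receptor for Ccl25 on gut-homing cells, had 1.03 and 1.32 at a peak whose midpoint lay 1030 and 1050 bp from the nearest start, and 0.507 on average within 500 bp. That peak lay 95070 and 95052 bp from the most 5′ start. The taller peak at the most 5′ start had 0.301 in animal 1 and 0.435 in animal 2, within 1 kb of Slc6a20a as well. Ccr10, carried by plasma cells and skin-homing T cells, had a promoter peak in animal 2 alone, at 0.713, in an exon of its neighbour Cntnap1. Past the window and over 1 kb from every coding start, the tallest Ccr10 site in animal 1 was 3.26, 1.46 kb downstream. In animal 2 it was 3.94, 1.70 kb upstream. The strongest promoter peak of Cntnap1 was taller, at 4.93 and 6.77. With a window of 2 kb, Ccr10 was open in both animals.

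Effector lymphocyte receptors had low promoter peaks where they had any. Cxcr3, the receptor for Cxcl9 and Cxcl10 on Th1 and CD8 T cells, had 0.996 and 1.12. Cxcr6 had 0.451 in animal 1 and no peak in animal 2, and the Th2 and regulatory T cell receptors Ccr4 and Ccr8 had none.

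No myeloid receptor had a promoter peak in both animals. Ccr1, Ccr2, Ccr3, Cxcr1, Cxcr2 and Xcr1 had none, and Cx3cr1, a marker of resident macrophages and non-classical monocytes, had 0.279 in animal 1 alone. Beside this, promoter peaks were found at 4 of 5 macrophage and monocyte markers in animal 1 and at 3 in animal 2, with Adgre1 closed. The shares over all coding genes were 61.4% and 62.6%. Among the atypical receptors, Ackr3, which binds Cxcl12, had 2.09 in animal 1 and 2.48 in animal 2 (mean with SD 2.28 ± 0.273, n = 2). Ackr4, which binds Ccl19, Ccl21 and Ccl25, had 0.487 and 0.462, and Ackr1 and Ackr2 had no promoter peak.

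**Figure D2:**
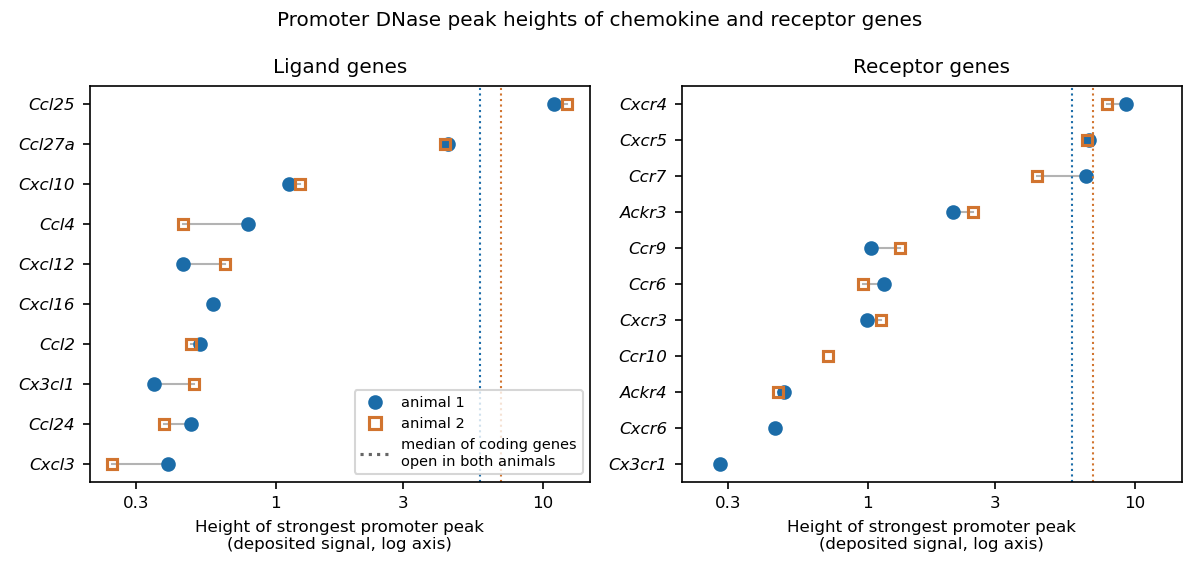
Points give the height of the strongest promoter peak (deposited signal, log axis) in animal 1 (filled circles) and animal 2 (open squares) for 10 ligands and 11 receptors open in at least 1 animal; dotted lines mark the medians over coding genes open in both animals. Ccl25 (11.0 and 12.4), whose peak is shared with Elavl1, and Cxcr4 (9.32 and 7.90) are the tallest, and most ligands lie below 1.

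Receptors and their ligands stood in no single order. Cxcr4 stood at 9.32 and 7.90 and its ligand Cxcl12 at 0.451 and 0.645. Cxcr5 stood at 6.73 and 6.62 while its ligand Cxcl13 had no peak, and Ccr7 had 6.58 and 4.31 while Ccl19 and Ccl21a, with their repeated promoters, had none. Ccr6 was open in both animals while its ligand Ccl20 had no peak. For Ccr9 (1.03 and 1.32) the ligand Ccl25 was taller (11.0 and 12.4, at the peak shared with Elavl1). For Ccr10 (none and 0.713, with taller sites just past the window) Ccl27a was taller (4.44 and 4.32), while its other ligand Ccl28 had no promoter peak. Cxcr3 and Cxcl10 were of like height, at 0.996 and 1.12 for the receptor and 1.12 and 1.23 for the ligand. Cxcl9, the other Cxcr3 ligand named above, had no promoter peak. The Cx3cl1 promoter was open in both animals and that of Cx3cr1 in animal 1 alone. Neither partner had a promoter peak in either animal for Xcl1 and Xcr1, for Ccl17, Ccl22 and Ccr4, or for Ccl1 and Ccr8.

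The deposited cut-rate files list intervals with a false discovery rate under 0.05, and such an interval lay within 1 kb of a start at 1 of the 38 members without a promoter peak in animal 1 (Ccr4, 0.04997) and at 1 of 40 in animal 2 (Cxcr6, 0.0323). These are 2.63% and 2.5%, near the background of 2.65% and 2.87% over coding genes without a peak. Some members had a peak just past the window: Ackr2 at 1.52 and 1.48 kb, Ccr4 at 1.76 kb in both animals with heights of 1.35 and 2.72, and Ccl1 at 1.75 and 1.78 kb.

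Receptor genes lay among more distal sites than ligand genes. Distal peaks were those centred over 1 kb and up to 50 kb from the most 5′ start, and they need not act on the nearest gene. A promoter peak at an internal start, as at Cxcr5 and Ccr6, was therefore counted among the distal peaks as well. At least 1 was present for 52 of 59 members in each animal, against 81.9% of coding genes in animal 1 and 82.7% in animal 2. Every receptor had some, with 3 to 31 in animal 1 and 2 to 23 in animal 2, and a median of 8.5 and 8. Ligands had a median of 5 and 4, the same as all coding genes, and the 32 ligands with under 50% repeated promoter words had 6 and 4.5. The ligands Ccl8, Ccl12, Ccl19, Ccl20, Ccl21a, Ccl21b and Ccl27b had none in either animal, and Ccl19, Ccl21a, Ccl21b and Ccl27b of these lie in the repeated stretch. Of the distinct distal peaks near members, 81.7% of the 328 in animal 1 and 86.5% of the 310 in animal 2 overlapped a peak of the other animal, against 76.5% and 79.0% of all peaks.

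**Figure D3:**
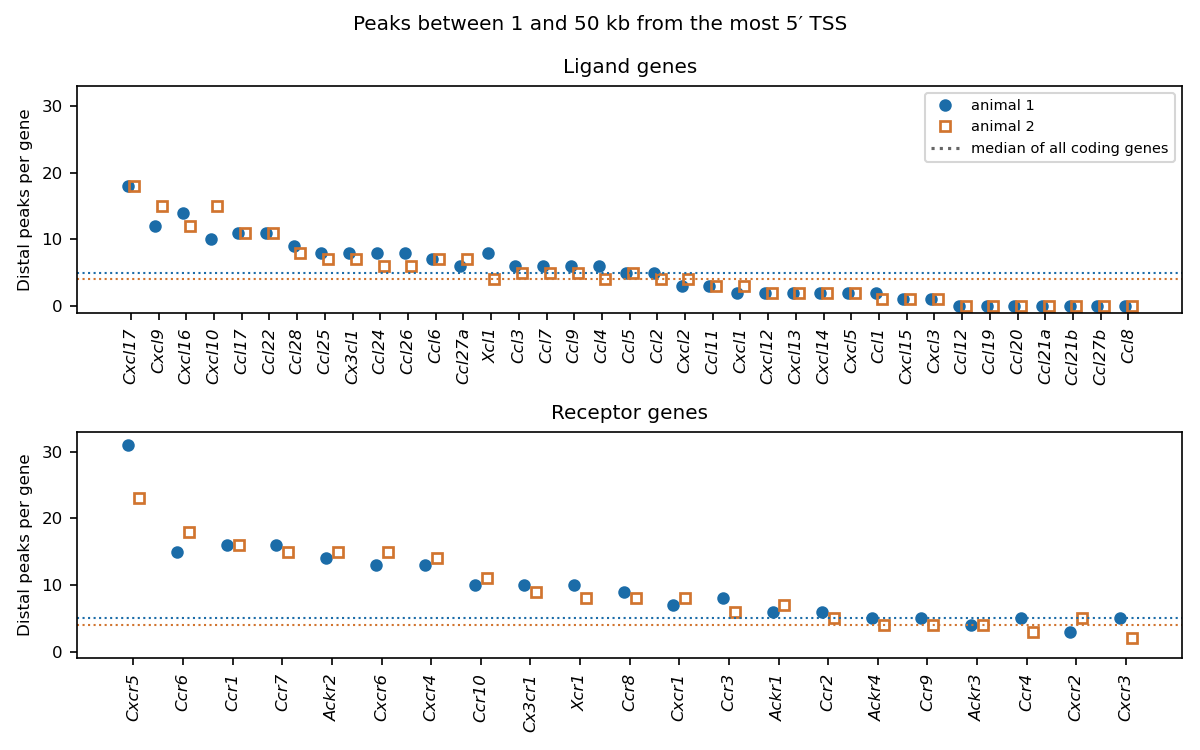
Each point is the number of peaks between 1 and 50 kb from a gene's most 5′ start, in animal 1 (filled circles) and animal 2 (open squares), for the ligands (top) and 21 receptors (bottom); dotted lines mark the coding-gene medians of 5 and 4. Cxcr5 has the highest counts (31 and 23), and 7 ligands lie at 0 in both animals.

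Cxcr5 had the most distal peaks of any member, 31 in animal 1 and 23 in animal 2 (mean with SD 27.0 ± 5.66, n = 2). It was the nearest coding gene for 23 and 18 of them. Within 1 kb of any coding start, the internal starts of Cxcr5 included, lay 4 and 5. Of these peaks, 21 in each animal overlapped a peak of the other. Counted from the start under its promoter peak, the mean rose to 39 peaks. Away from every coding start, the tallest in animal 1 reached 6.35, inside the gene, and the tallest in animal 2 reached 6.44, 20.7 kb upstream, where animal 1 had 6.16. The next members were Cxcl17 with 18 and 18, Ccr6 with 15 and 18, Ccr1 with 16 and 16, Ccr7 with 16 and 15, Ackr2 with 14 and 15, Cxcr6 with 13 and 15, and Cxcl9 with 12 and 15. Cxcr4 tied with Cxcl9 in its mean, with 13 and 14.

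Several receptors had tall distal sites, given here where they lie over 1 kb from every coding start. Ccr6, whose promoter peaks stayed near 1, had a site of 7.92 in animal 1 and 9.89 in animal 2, 3.77 kb upstream of its most 5′ start, with 3 footprints in each animal. Ccr7 had a site of 9.55 and 7.24, 13.2 kb upstream, taller than its own promoter in both animals. In RefSeq this site overlaps an exon of the long noncoding RNA Gm32249. Cxcr4 had 5.74 and 5.07 at 16.0 kb upstream, and it was the nearest coding gene for all 13 and 14 of its distal peaks.

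Ccr1 had no promoter peak, yet 16 distal peaks in each animal, none of them within 1 kb of a coding start. The tallest measured 9.73 in animal 1 and 12.1 in animal 2, lies 43.8 kb downstream, and overlaps no exon in GENCODE or RefSeq. Its printed sequence is 76.4% G and C and holds 29 CpG in 220 bases, against 51.4% and 4 in the Ccr7 site of the same length. Cx3cr1 had a site of 2.22 and 2.69, 3.46 kb upstream in animal 1. The sites near Ccr1 lie within a cluster of receptor genes, and which gene they act on was not tested.

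**Figure D4:**
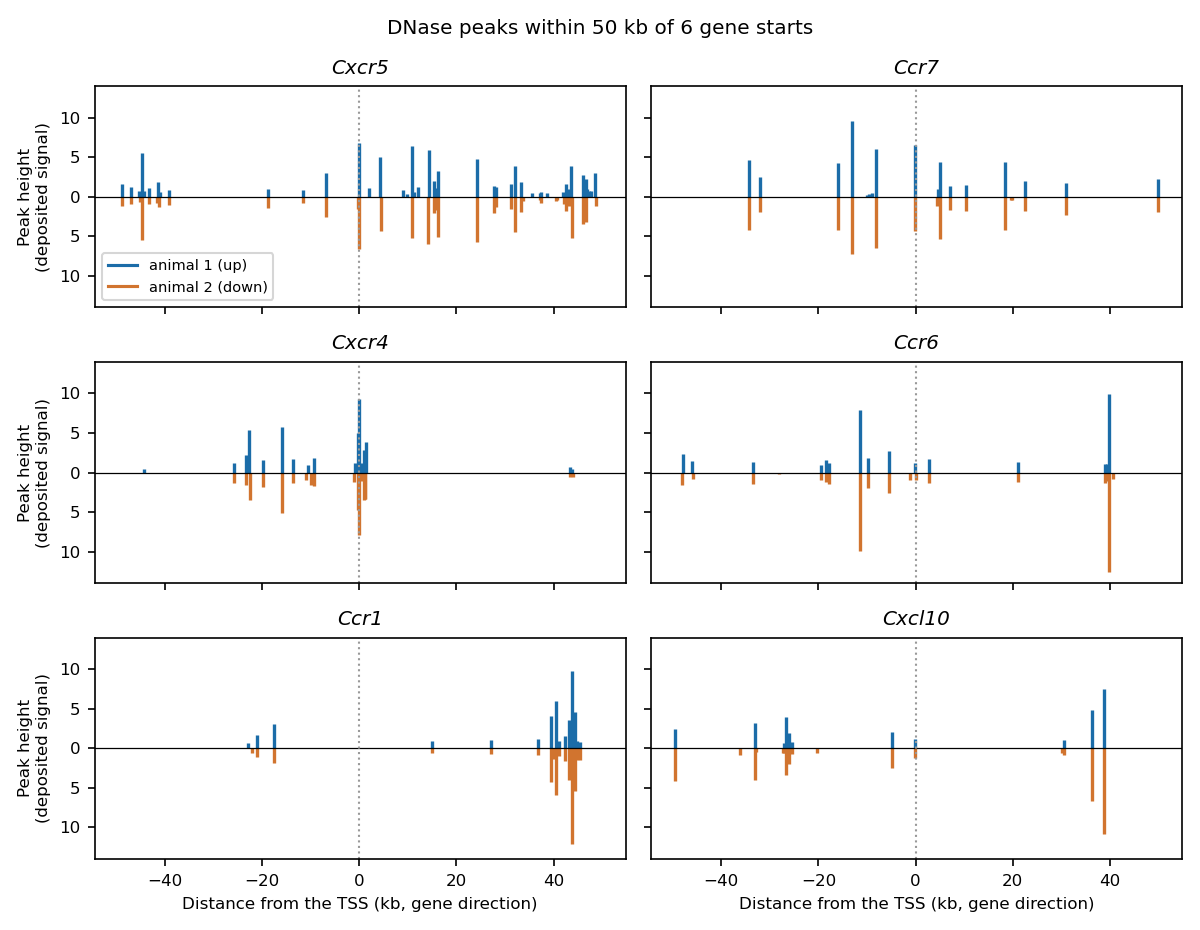
Vertical lines are peaks within 50 kb of the start under the strongest promoter peak (Ccr1, with none, from its most 5′ start) of 6 genes, by height (deposited signal), with animal 1 drawn upward and animal 2 downward. Most tall peaks have a counterpart in the other animal, some lower ones do not, and the tall site near Ccr1 (9.73 and 12.1) stands far from a start without a peak.

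Among ligands, by the same choice of sites, the tallest near Ccl22 measured 11.6 in animal 1 and 11.1 in animal 2, 41.5 kb upstream, but it overlaps the transfer RNA gene n-TLcag4 in RefSeq and its nearest coding gene is Pllp. Ccl17, a neighbour of Ccl22 and likewise a Ccr4 ligand, had a site of 3.33 and 3.23, 2.53 kb downstream. Cxcl9 and Cxcl10 shared their tallest site, of 4.90 and 6.66, which lies nearest to Sdad1. The Cxcl17 site of 4.32 and 5.68 lies 11.8 kb upstream of that gene in both animals.

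Clusters of ligand genes differed in the density of peaks. The Ccl5 to Ccl4 cluster (5 genes, 132 kb) held 11 and 10 peaks, 8.33 and 7.57 per 100 kb. The Ccl2 to Ccl1 cluster (6 genes, 270 kb) held 9 and 6, or 3.33 and 2.22 per 100 kb. The neutrophil cluster from Cxcl5 to Cxcl2 held 0.692 per 100 kb in both animals.

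Footprints in member promoter peaks numbered 60 in animal 1 and 61 in animal 2. Ligands held 21 and 17 of them and receptors 39 and 44. Per 100 bp of promoter peak the members had 1.00 and 1.27, and all coding genes had 1.19 and 1.27. Promoter footprints were counted only inside promoter peaks. At least 1 was present at 19 of the 21 members open in animal 1 and 16 of the 19 open in animal 2. Among open coding genes it was 13043 of 13473 and 13334 of 13728, which are 59.5% and 60.8% of all coding genes. Cxcr3 had 3 footprints in animal 1 and 0 in animal 2, in peaks of like height. Cxcr4 had the most, with 13 and 16 over its 5 peaks.

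Motif letters were searched on both strands in the 300 bases from 250 before to 50 after the most 5′ start, and matches may overlap. A match is a description of the letters and not a site. GAGGAA, a core bound by PU.1 and other ETS factors, was in 13 of 37 ligand windows (35.1%) and 11 of 22 receptor windows (50%), against 27.7% of all coding genes and 29.4% of low-CpG ones. TGTGGT, a RUNX core, was in 9 ligand (24.3%) and 8 receptor windows (36.4%), against 15.3% and 18.3%.

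The NF-kB consensus was in 8 ligand windows (21.6%) and 3 receptor windows (13.6%), against 9.09% of all coding genes and 8.29% of low-CpG ones. The ligands were Ccl5, Ccl9, Ccl20, Cxcl1, Cxcl2, Cxcl3, Cxcl5 and Cxcl10, inflammatory genes for the most part. Of the 8, 2 were open in both animals, Cxcl10 and, at different peaks, Cxcl3. This is near the share without a match, 7 of 29 ligands, and that of all ligands, 24.3%. TGANTCA, bound by AP-1, was in 6 ligand (16.2%) and 2 receptor windows (9.09%), against 6.91% and 8.78%, so the receptors were near the low-CpG share. The interferon response motif, GAAA repeated after any 2 bases, was in 3 ligand windows, of Ccl19, Cxcl10 and Cxcl14, and in 0 receptor windows. Its share was 3.55% of all coding genes and 4.02% of low-CpG ones. CACCTG, an E box, was in 7 ligand (18.9%) and 6 receptor windows (27.3%), against 20.4% and 22.4%.

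In the printed sequences, counted from 1 at the 5′ end, the Ccr7 promoter has TGANTCA at position 114, which overlaps a footprint found in both animals, and TGTGGT at position 140, outside the capitals. The Cxcl10 promoter has NF-kB matches at positions 48 and 49 and TGANTCA at 78. No base of the printed Cxcl10 stretch was in a footprint in both animals, although 3 footprints in animal 1 and 2 in animal 2 lay there. The Ccr6 distal site has GAGGAA at position 160, outside the capitals. The Ccr7 distal site has GAGGAA at 188 and an NF-kB match at 126, and the Ccr1 distal site has NF-kB matches at 68 and 92, of which 1 overlaps capitals.

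Member promoters ran lower in animal 2 relative to the shift of the libraries. Of the 18 members open in both animals, 11 were higher in animal 1 (6 of 9 receptors and 5 of 9 ligands), against 14.6% of all coding genes open in both. The median log2 ratio of animal 2 over animal 1 was -0.04 for ligands and -0.08 for receptors, and 0.27 for all coding genes. The downstream signalling genes leaned the same way to a lesser degree. Of the 38 open in both animals, 14 (36.8%) were higher in animal 1, with a median ratio of 0.19. Over coding genes with a mean height under 2, 19.6% were higher in animal 1, and 7 of the 12 members under that height were higher in animal 1. Cxcl3, whose peaks in the animals are different sites, enters these values. Without it, 10 of 17 members were higher in animal 1, with a median of 0.04 for ligands, and 6 of the 11 members of low height. At overlapping peaks, lower values of the ratio were at Ccl4 (-0.81) and Ccr7 (-0.61), and Cxcl12 (0.52) and Cx3cl1 (0.50) had higher ones. With 1 library per animal, animal and library cannot be told apart.

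**Figure D5:**
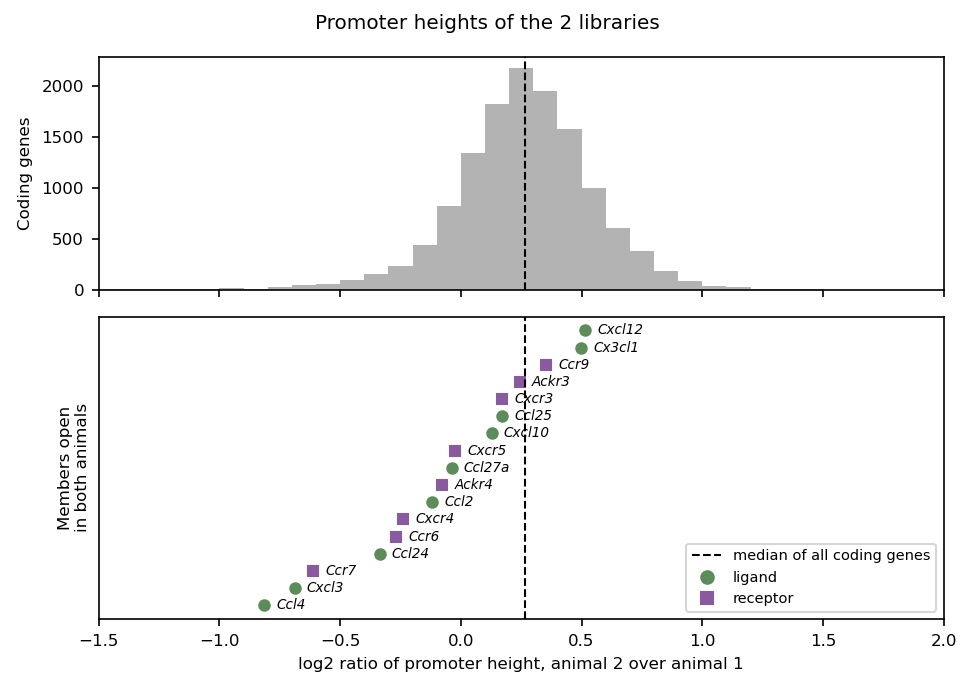
The upper panel is a histogram of the log2 ratio of promoter height, animal 2 over animal 1, over coding genes open in both animals, and the lower panel gives 17 members (green circles, ligands; purple squares, receptors). The dashed line is the coding-gene median (0.27), and 14 of those members lie to its left, Cxcl3 with different sites in each animal among them.

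The machinery downstream of the receptors was accessible almost throughout. A list of 40 genes for G proteins, arrestins, receptor kinases, RGS proteins and migration adaptors was chosen with earlier results of these data known. Of these 40 genes, 38 were open at the promoter in both animals (95.0%, against 59.8% over all coding genes). High-CpG promoters were more frequent than among the members, at 18 genes, and 17 of these were open, against 90.6% of high-CpG coding genes. Of the 22 low-CpG genes, 21 were open, against 43.9%. The median height over the list was 5.77 in animal 1 and 7.26 in animal 2, close to that of all coding genes. The tallest were Grk6, a kinase that phosphorylates chemokine receptors, with 20.5 and 18.8, the GTPase Cdc42 with 16.4 and 17.7, the Gi subunit Gnai2 with 16.8 and 16.6, the Rac exchange factor Prex1 with 15.035 and 18.3, and the arrestin Arrb2 with 12.6 and 14.6. Rgs13, a regulator known from germinal centre B cells, had no promoter peak, and Gnai1, a Gi subunit, had 0.346 in animal 2 alone.

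Related genes outside the symbol rule varied as well. Cklf, a chemokine-like factor, had 5.25 in animal 1 and 6.46 in animal 2, and the non-signalling chemerin receptor Ccrl2 had 0.609 and 0.815. Cmklr1, the signalling chemerin receptor, had 0.747 in animal 2 alone. The platelet chemokines Pf4 and Ppbp and the Ccr1 relative Ccr1l1 had no promoter peak.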

How the data were processed

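DNase-seq libraries of 2 spleens were used, 1 per animal, both in 1 group. The deposited file listings show that each library was handled alone, on mm10. The authors deposited 2 narrowPeak lists per library with a peak height, a signal whose unit is not stated, cut-rate files with a false discovery rate (a q-value), and footprints with a constant in the p-value column, so that only their positions were used. The aligner, callers, thresholds and read depth were not given in the sources used here. For promoters and distal sites, the longer peak list was used.

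Genes and start sites were from GENCODE M21 on GRCm38.p6, which has the mm10 sequence, with genes on the mitochondrial chromosome left out. A promoter peak overlapped the 1 kb on each side of any start by at least 1 bp, and the strongest gave the height. Distal peaks were centred beyond 1 kb and within 50 kb of the most 5′ start, promoter peaks at internal starts included. Repeated 31-base words were counted on chromosomes 1 to 19, X and Y. Transcripts under distal sites were also looked up in RefSeq. Sequences are those of the reference genome, which is C57BL/6J, and the CAST/EiJ alleles were not examined. Scripts used Python 3.11.15, pandas 2.3.3, NumPy 2.4.6, pyfaidx 0.9.0.4 and samtools 1.23.1, and the counting was tested on simulated peaks.

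Of the receptors, 1 among the members is counted in the totals and medians but is not reported here by itself. Other members with a promoter peak in either animal are named with heights, the others by name, and the 8 with the most distal peaks or highest promoter peaks are described. Signalling genes are named for the 5 highest means and where a peak is missing. The members and lists were chosen with earlier results of these data known. No test was made, because there is 1 group. The alternatives were the shorter list, other windows, the most 5′ start alone, the higher 50% of peaks, the peak midpoint, other distal distances, each animal alone, and, chosen after seeing the data, ratios over genes whose strongest peaks overlap between the animals.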

Additional observations from a re-analysis of the deposited data

How the results depend on the processing

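Which members were open depended on the peak list for the low peaks. Members open in both animals fell from 18 to 10 with the shorter list and to 10 with the higher 50% of the peaks of each library, and ligands fell from 9 to 4 and to 3. The shorter list lost Ackr4, Ccl2, Ccl24, Ccl4, Ccr6, Ccr9, Cx3cl1 and Cxcl3. A 2 kb window added Ackr2, Ccl1, Ccr10 and Ccr4. No share over all coding genes is given for these settings, so the changes cannot be read as particular to the members. The median height of ligands rose from 0.548 to 2.78 with the shorter list and 4.38 with the higher peaks. That of receptors, 1.62, became 3.87 and 2.28, so that the higher peaks turn the order of the classes, and 1.95 within 500 bp and 2.16 within 2 kb. Each animal alone gave medians of 0.496 to 0.552 for ligands and 1.15 to 1.297 for receptors, and counts of 19 to 21 open members. Footprints per animal fell from 19 to 16 for ligands and from 41.5 to 35 for receptors with the shorter list, and to 31 for receptors within 500 bp. The median number of distal peaks, 4.5 for ligands and 8.25 for receptors, was 3 and 6 with the shorter list, 1.5 and 3.75 with the higher peaks, 1 and 2.75 up to 20 kb, 10 and 18 up to 100 kb, and 3.5 and 5.25 away from every coding start. Receptors had the larger distal median under each of these settings. The ligands' median log2 ratio of -0.04 became 0.15, 0.04 and 0.13 with the shorter list, the 2 kb window and the higher peaks, and that of receptors, -0.08, became 0.07 with the 2 kb window. With genes whose strongest peaks overlap between the animals, the ligands' ratio was 0.04 and the receptors' stayed at -0.08. With other windows or starts, heights of Ccr6, Ccr9, Cxcl12 and Ackr4 moved by more than the SD of the animals. The setting of overlapping peaks and the distance from the start under the strongest promoter peak were chosen after seeing the data. No paired analysis was possible because there is 1 group, and the log2 ratio needs both animals. The cause of these shifts was not tested beyond the fewer peaks counted.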
